A study of Homo sapiens with 18 samples.

Results

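The genes described here are 10 secretory genes: the mucins MUC1, MUC2, MUC4, MUC5AC, MUC5B, MUC13, MUC16, MUC19 and MUC20, and AGR2. They are 10 of the 27968 gene symbols in the deposited files, and all 10 symbols are listed in every file, MUC19 with 0 counts in 1 library. They were picked by name with earlier results of these libraries in view: 2 patterns among the A549 fold changes, the level of MUC19 with siRNA1 and the opposite directions of AGR2 with siRNA2 and siRNA3, are written into the choice. For these 10 genes, every A549 difference between an siRNA and its control is therefore given below as a description, with no p-value. Counts of calls among them, and single calls gained or lost under other settings, are descriptions too and support no difference. Genes outside the 10 were tested in A549 as well, and adjusted p-values are printed for some of them. Their lists were also chosen with earlier results known, and genes were named by small adjusted p. Those p-values are thus not independent of the choice. The MDA-MB-231 contrast and the contrast between the control groups of the lines were tested. The 2 patterns named above were seen in A549, but the choice took in the siRNA contrasts of both lines. It was made with earlier results of these libraries in view, so the p-values of both tested contrasts are not independent of it.

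The 18 libraries came from 2 lines grown in DMEM with serum. A549 was established from a lung adenocarcinoma, and MDA-MB-231 from a breast cancer that lacks hormone receptors. A549 cells were given either the control siRNA or 1 of 3 BLM siRNAs, named siRNA1, siRNA2 and siRNA3, and MDA-MB-231 cells received a control siRNA or siRNA1. Each of the 6 groups holds 3 libraries. BLM, a helicase of the RecQ family, takes apart DNA structures formed during recombination, and the design text asks which genes it regulates in cancer cells. The protocols name both flat and 3D culture without saying which library came from which. The time after transfection is not given in the sources used here. That siRNA1 is the same molecule in both lines is taken from its name. Nothing says that the 3 libraries of a group are separate cultures, so p-values and errors may reflect technical spread alone.

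Mucins are large glycoproteins whose serine- and threonine-rich repeats carry dense O-linked sugars. MUC5AC, MUC5B, MUC2 and MUC19 are secreted and link through disulphide bonds into gels: MUC5AC and MUC5B are the main gel formers of airway mucus, and MUC2 is that of the intestine. MUC1, MUC4, MUC13 and MUC16 span the cell membrane, with a glycosylated outer part and a short tail inside the cell; MUC20 is a smaller, membrane-associated mucin. AGR2 is an endoplasmic reticulum protein of the disulphide isomerase family that goblet cells use in mucin folding. Cells not making mucus hold little of the gel-forming mucins, whose genes in secretory epithelium are under control of factors such as SPDEF and FOXA3.

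RefSeq gave a start-site window for 7 of the 10 genes (MUC5AC, MUC5B and MUC20 had none). The windows hold 250 bases before and 50 bases from the start and are on GRCh38.p14, whereas the files were made on hg19. The 3 printed here belong to the 2 genes that defined the choice, MUC19 and AGR2, and to MUC1, the mucin that was higher with siRNA1 in both lines. They are chr1:155192866-155193165 on the minus strand for MUC1, chr12:40393144-40393443 on the plus strand for MUC19 and chr7:16804950-16805249 on the minus strand for AGR2. Each is written 5′ to 3′, and capitals mark a match to 1 of the 10 motifs searched.
MUC1: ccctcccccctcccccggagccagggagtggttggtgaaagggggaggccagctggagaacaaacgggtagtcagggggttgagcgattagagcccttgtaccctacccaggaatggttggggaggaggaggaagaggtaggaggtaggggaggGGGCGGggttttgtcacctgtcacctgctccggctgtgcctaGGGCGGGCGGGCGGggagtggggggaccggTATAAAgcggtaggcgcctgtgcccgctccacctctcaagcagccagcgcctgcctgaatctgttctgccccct
MUC19: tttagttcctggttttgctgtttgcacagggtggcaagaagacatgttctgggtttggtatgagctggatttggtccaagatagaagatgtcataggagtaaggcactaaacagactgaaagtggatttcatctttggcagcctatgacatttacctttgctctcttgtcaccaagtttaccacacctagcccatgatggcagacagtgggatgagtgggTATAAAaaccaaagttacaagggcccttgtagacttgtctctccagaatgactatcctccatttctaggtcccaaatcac
AGR2: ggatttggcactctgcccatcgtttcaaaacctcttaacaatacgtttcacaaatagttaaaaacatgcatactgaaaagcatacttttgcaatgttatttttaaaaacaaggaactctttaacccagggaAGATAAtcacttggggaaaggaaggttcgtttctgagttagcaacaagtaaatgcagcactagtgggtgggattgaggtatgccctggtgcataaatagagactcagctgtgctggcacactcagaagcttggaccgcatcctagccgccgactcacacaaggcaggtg

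The motifs were searched on both strands, and their share was counted over 35116 RefSeq windows of the same length. GGGCGG, the letters bound by SP1, stood in 45% of windows. The ETS core GGAAGT was in 22.8%, and GGATGT, the form that SPDEF prefers, in 10.1%. TATAAA, the TATA box, was found in 11.5% and the GATA site AGATAA in 10.3%. The AP-1 site TGANTCA had a share of 7.71%, and the E-box CACGTG one of 7.26%. The forkhead site TGTTTAC was in 3.42% of windows, the cyclic AMP element TGACGTCA in 1.85%, and the HNF4 site CAAAGTCCA in 0.384%. The MUC1 window held a TATA match that begins 24 bases before the start and 4 SP1 matches that begin 96, 54, 50 and 46 bases before it, of which the last 3 overlap each other. The MUC19 window held only a TATA match, 30 bases before the start. AGR2 held only a GATA match, 119 bases before the start. Of the other windows, MUC13 held AP-1, cyclic AMP element and HNF4 matches, MUC2 held AP-1 and SP1, and MUC4 and MUC16 held SP1. A match is a run of letters, and factor binding was not measured. Along the genome, MUC2, MUC5AC and MUC5B follow each other as neighbouring coding genes, MUC20 lies next to MUC4, and AGR2 lies next to its relative AGR3.

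Total expected counts ran from 30143047 to 40328208 per library. BLM itself was lower with each siRNA, by log2 values of -6.04 ± 0.10 (SE), -2.88 ± 0.08 and -3.59 ± 0.08 in A549 with siRNA1, siRNA2 and siRNA3, and by -2.76 ± 0.07 in MDA-MB-231. Levels are given in TPM, RSEM's transcript share corrected for length, and differences as edgeR log2 fold changes from counts. Whether groups overlap was judged on CPM, counts over the scaled library total. The share of all genes whose groups do not overlap is not given here, so each such statement only describes the gene. In A549 siRNA3 replicate 3 and A549 control replicate 2, the deviation of a gene from its group mean went down most with transcript length (Spearman's rho -0.68 and -0.45 across 14073 genes). Every other library lay between -0.33 and 0.59, with A549 siRNA3 replicates 1 and 2 at 0.59 and 0.51. Deviations within a group balance each other, so which library of a group is the unusual one cannot be told from these values. Most mucin transcripts are long, and the part of this length trend in the mucin values was not tested. For some genes, values without a library are given.

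In A549, 7 of the 10 genes were called higher and 0 lower with siRNA1 (39% of all tested genes were higher and 32.8% lower). With siRNA2, 8 were higher and 0 lower (32.5% and 28.4% of all genes). With siRNA3, 4 were higher and 3 lower (30.9% and 30.4%). A call means an edgeR quasi-likelihood p-value under 0.05 after Benjamini-Hochberg adjustment over 15898 genes. The median log2 fold change of the 10 was 1.32, 2.23 and -0.21 with the 3 siRNAs, beside 0.09, 0.04 and 0.00 for all genes tested. The 3 comparisons share the same control libraries, and the genes were picked with these contrasts in view, so nothing is read from the counts. In bulk RNA, a change in the number of cells of a type and in RNA per cell cannot be told apart.

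**Figure D1:**
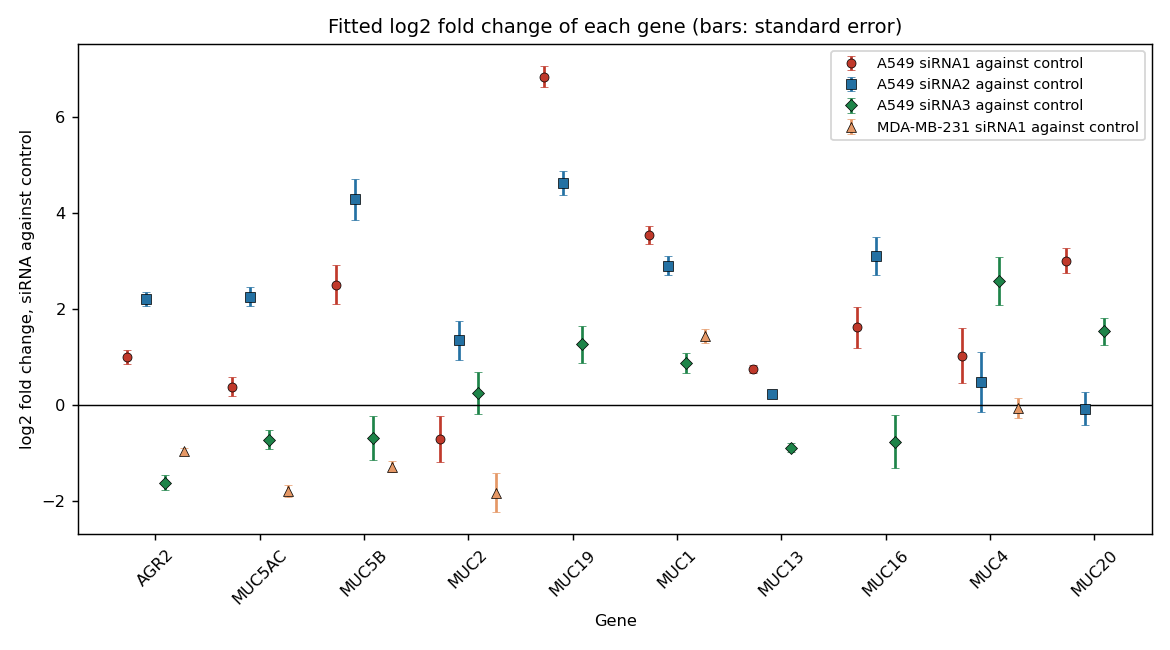
Fitted log2 fold change (y axis) of each of the 10 genes (x axis) with each siRNA against the control of its line; bars are standard errors. MUC19 with siRNA1 is the highest point at 6.83, and AGR2 sits at 2.21 with siRNA2 and at -1.61 with siRNA3.

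AGR2 had the highest level of the 10 in every group. Its TPM was 258, 183 and 233 in the A549 control libraries, 522, 525 and 545 with siRNA1, 1156, 1046 and 1086 with siRNA2, and 66.9, 63.7 and 83.1 with siRNA3. The 4 groups did not overlap in TPM, with siRNA3 below the control and both other siRNAs above it. On the count scale AGR2 was higher by 1.00 ± 0.15 (log2, SE) with siRNA1 and by 2.21 ± 0.15 with siRNA2, and was lower with siRNA3, at -1.61 ± 0.15. Its relative AGR3, a goblet cell protein of the same family, had 0 to 1 counts in the A549 control and siRNA3 libraries, 12 to 15 with siRNA1 and 6 to 14 with siRNA2.

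MUC5AC, the gel-forming mucin of surface goblet cells, stood second in the A549 control at a mean of 9.79 TPM. Its libraries held 10.7, 6.85 and 11.8 TPM in the control, 15.2, 12.98 and 17.4 with siRNA1, 55.3, 42.2 and 51.5 with siRNA2, and 7.32, 6.67 and 3.94 with siRNA3. The siRNA2 libraries all lay above every other A549 library, and the siRNA1 libraries overlapped the control on the count scale. The log2 differences were 0.39 ± 0.19 with siRNA1, which was not called, 2.25 ± 0.20 with siRNA2 and -0.72 ± 0.20 with siRNA3. The siRNA1 value became a call on TPM (0.61 with a pseudocount of 1) and without control replicate 3 (0.53), among other settings. Without control replicate 2 the siRNA1 value went down to 0.20.

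MUC5B, the gel former of submucosal glands and small airways, had 0.84, 0.18 and 0.86 TPM in the A549 control libraries. It had 4.00, 3.76 and 4.92 TPM with siRNA1, 14.4, 10.4 and 14.2 with siRNA2, and 0.57, 0.47 and 0.14 with siRNA3. Every siRNA1 and siRNA2 library lay above the control, whereas the siRNA3 libraries overlapped it. The differences were 2.51 ± 0.41, 4.28 ± 0.43 and -0.68 ± 0.45 (log2, SE). Control replicate 2, 1 of the libraries named above for transcript length, was the low control value. Without it the siRNA1 and siRNA2 differences were 2.08 and 3.85, and the siRNA3 difference was -1.11 and was called.

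MUC2, the intestinal gel former, had counts of 30, 7 and 44 in the A549 control, 14, 15 and 20 with siRNA1, 59, 57 and 68 with siRNA2, and 34, 31 and 14 with siRNA3. Only the siRNA2 libraries were clear of the control. The log2 differences were -0.70 ± 0.47, 1.35 ± 0.40 and 0.26 ± 0.44. Without control replicate 2 the siRNA1 difference was -1.15 and was called. The siRNA2 difference was then 0.91, and the siRNA3 difference changed sign to -0.19. MUC2 and its neighbour MUC5AC were both highest with siRNA2.

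MUC19, a gel-forming mucin known from salivary glands, was close to the detection limit in A549 controls, with 6, 2 and 4 counts. It had 471, 519 and 417 counts with siRNA1, 97, 94 and 82 with siRNA2, and 11, 6 and 7 with siRNA3. The siRNA1 libraries stood at a mean of 1.08 TPM and the siRNA2 libraries at 0.21 TPM, so the level stayed below those of MUC1, MUC5AC and MUC13 in the same cells. Pooled counts over library totals gave a ratio to the control of 130 with siRNA1 (exact 95% interval 74.0 to 252, counting error only), 26.5 with siRNA2 (14.9 to 51.9) and 2.43 with siRNA3 (1.17 to 5.33). These intervals leave out the spread between libraries. They are no test of a difference, because the level of MUC19 with siRNA1 is written into the choice. The fitted log2 differences were 6.83 ± 0.22, 4.62 ± 0.25 and 1.26 ± 0.38. The siRNA3 call rests on few counts: it was lost without control replicate 2 (0.97), without siRNA3 replicate 1 (1.04) and on log2 TPM with a pseudocount of 1 (0.02).

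MUC1, a membrane mucin of the apical surface of most epithelia, went from 1.87, 1.19 and 1.52 TPM in the A549 control to 18.6, 18.5 and 21.6 with siRNA1. It had 11.6, 9.09 and 12.99 TPM with siRNA2 and 2.44, 3.42 and 1.91 with siRNA3. All 9 siRNA libraries lay above the 3 control libraries. The log2 differences were 3.55 ± 0.19, 2.91 ± 0.19 and 0.87 ± 0.21. In the order of mean TPM, MUC1 stood at rank 4 of the 10 in the control and at rank 2 with siRNA1, at 19.5 TPM, with MUC5AC at 15.2 and MUC13 at 13.9 behind it.

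MUC13, a membrane mucin of the gut and airway, varied little within groups. It had 7.04, 7.11 and 6.64 TPM in the control, 14.3, 13.5 and 14.0 with siRNA1, 8.51, 8.58 and 8.89 with siRNA2 and 4.17, 3.76 and 3.3 with siRNA3. The groups did not overlap. The log2 differences were 0.75 ± 0.08, 0.22 ± 0.08 and -0.88 ± 0.09, and the small siRNA2 difference was no longer called under DESeq2 (0.19) and several other settings, including without any of the 3 siRNA2 libraries.

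MUC16, the membrane mucin that carries the CA125 antigen, had 40, 6 and 25 counts in the control, 68, 79 and 70 with siRNA1, 222, 161 and 166 with siRNA2 and 14, 17 and 3 with siRNA3. The siRNA1 and siRNA2 libraries lay above the control, and the siRNA3 libraries overlapped it. The differences were 1.62 ± 0.42, 3.11 ± 0.40 and -0.76 ± 0.55 (log2). They leaned on control replicates 1 and 2, which were the high and the low control: without replicate 1 they were 2.22, 3.71 and -0.16. Without replicate 2 they were 1.17, 2.66 and -1.21, and the siRNA3 value was called. With siRNA1 the call was lost on log2 TPM with a pseudocount of 1 (0.09), a scale that holds little of a gene at this level.

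MUC20 had 13, 11 and 9 counts in the control, 91, 81 and 95 with siRNA1, 12, 8 and 8 with siRNA2 and 34, 29 and 16 with siRNA3. The siRNA1 libraries all lay above the control, and the siRNA2 libraries overlapped it. The log2 differences were 3.01 ± 0.25, -0.08 ± 0.34 and 1.53 ± 0.29. Its neighbour MUC4, a membrane mucin that binds ERBB2, had 7, 5 and 8 counts in the control, 16, 10 and 15 with siRNA1, 12, 9 and 4 with siRNA2 and 45, 45 and 10 with siRNA3. The MUC4 differences were 1.03 ± 0.57, 0.47 ± 0.62 and 2.58 ± 0.50. The siRNA1 value, not called, became a call without siRNA3 replicate 3, and the siRNA3 call was lost on log2 TPM (0.47 with a pseudocount of 0.1).

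The deposited MUC4 length, which weights the isoforms by their estimated abundance, also differed between groups. It was 5446, 3943 and 5199 bases in the A549 control, 4194 to 4888 with siRNA1, 4287, 8677 and 5202 with siRNA2, and 15651, 15651 and 9628 with siRNA3. In MDA-MB-231 it was 15124 to 16269 in all 6 libraries. The A549 values other than those of siRNA3 replicates 1 and 2 rest on 4 to 16 counts per library, so which isoform carries them is not resolved at this depth. Those 2 libraries had 45 counts each. TPM divides by this length, and the MUC4 means were 0.0633 TPM in the control and 0.133 TPM with siRNA3.

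**Figure D2:**
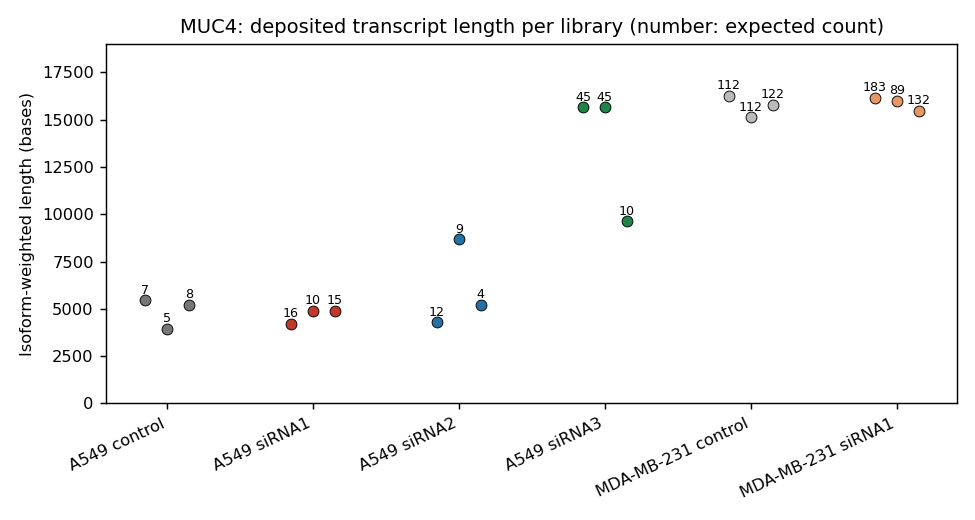
Isoform-weighted MUC4 transcript length in bases (y axis) in each library (points) of the 6 groups (x axis), with the expected count printed at each point. siRNA3 replicates 1 and 2 sit at 15651 bases, beside 3943 to 5446 in the control.

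**Figure D3:**
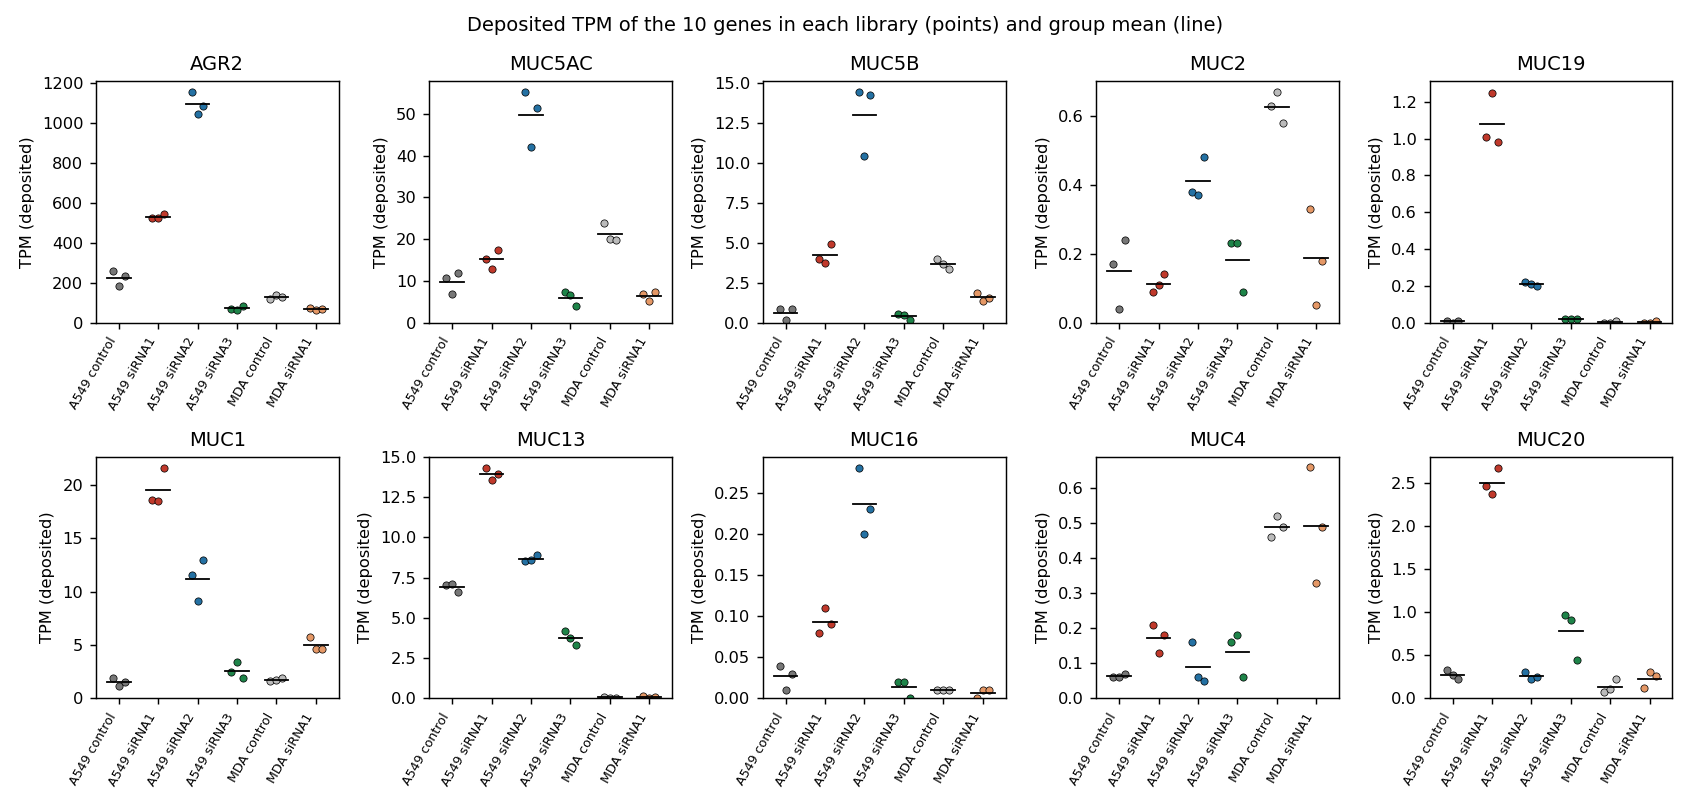
TPM as deposited (y axes, from 0, 1 panel a gene) in each library (points) with the group mean (line) for the 6 groups (x axes). AGR2, MUC5AC and MUC5B are highest with siRNA2 in A549, and MUC1, MUC19 and MUC20 with siRNA1.

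Among the 12 A549 libraries the members' log2 CPM had the highest Pearson r for MUC5B with MUC16 (0.984) and MUC1 with MUC19 (0.974). MUC5AC had 0.928 with MUC5B, 0.917 with MUC16 and 0.905 with AGR2. MUC1 also had 0.832 with MUC5B and 0.785 with MUC16, and MUC19 had 0.765 and 0.713 with the same genes. MUC13 was closest to AGR2 (0.787), MUC2 to its neighbour MUC5AC (0.662) and MUC20 to MUC19 (0.59). MUC4 had no value above that with its neighbour MUC20 (0.491), and had -0.611 with AGR2. Over all genes the closest to MUC19 were BDNF (0.994), ZBTB4 (0.993), OSBPL10 (0.993), ZSCAN30 (0.992) and HSDL2 (0.989). The closest to AGR2 were C20orf196 (0.990), QPRT (0.990), NCMAP (0.989), RNASE4 (0.986) and FGFR3 (0.986). These are descriptions over 12 points that share 4 groups. BDNF, a nerve growth factor, had a mean of 16.2 TPM in the control, 77.6 with siRNA1, 43.2 with siRNA2 and 19.1 with siRNA3, the order of MUC19.

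In MDA-MB-231, 6 of the 10 genes passed the filter on low counts; MUC13, MUC16, MUC19 and MUC20 did not. Of the 6, 1 rose and 4 fell with siRNA1 (27.5% of all tested genes rose and 27.8% fell, of 15280). MUC1 rose and AGR2, MUC5AC, MUC5B and MUC2 fell. The median of the 6 was -1.12, beside 0.01 for all genes. A share of 4 in 6 is given with no test of the list, because the genes were chosen with results of these data known.

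AGR2 had 119, 138 and 127 TPM in the MDA-MB-231 control and 73.4, 65.2 and 67.6 with siRNA1. It fell by 0.96 ± 0.08 on the log2 scale (adjusted p = 5e-06), and the groups did not overlap. MUC5AC had 23.8, 20.0 and 19.8 TPM in the control and 6.82, 5.24 and 7.47 with siRNA1, and it fell by 1.78 ± 0.12 (adjusted p = 2.08e-06). MUC5B went from 4.01, 3.65 and 3.38 TPM to 1.88, 1.36 and 1.56 and fell by 1.28 ± 0.12 (adjusted p = 1.12e-05). For each of these 3 genes, every siRNA1 library lay below every control library. The share of all genes that separate in this way is not given here, and 27.8% of all tested genes fell.

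MUC2 had 80, 81 and 78 counts in the MDA-MB-231 control and 48, 7 and 27 with siRNA1. It fell by 1.82 ± 0.40 (adjusted p = 0.00373), with a wide spread among the siRNA1 libraries: without replicate 1 the value was -2.49. MUC1 had 1.61, 1.68 and 1.90 TPM in the control and 5.76, 4.62 and 4.65 with siRNA1. It rose by 1.44 ± 0.15 (adjusted p = 2.71e-05), with no overlap. MUC4 had 112, 112 and 122 counts in the control and 183, 89 and 132 with siRNA1, and its difference of -0.06 ± 0.21 did not pass (adjusted p = 0.842). The genes under the filter had at most 10 counts in any MDA-MB-231 library; MUC19, at 417 to 519 counts in the A549 siRNA1 libraries, had 1, 0 and 3 counts with siRNA1 here.

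Between the control groups of the lines, 7 of the 10 could be tested, and 2 were higher and 4 lower in A549 than in MDA-MB-231 (40.7% of 15816 genes were higher and 41.3% lower). AGR2 was higher in A549, by 1.06 ± 0.10 (log2, adjusted p = 5.03e-07). MUC13 had 398, 413 and 382 counts in A549 and 3, 2 and 2 in MDA-MB-231, a ratio of 140 over library totals (exact 95% interval 67.9 to 350), and its fitted difference passed (adjusted p = 2.75e-12). MUC4, with 5 to 8 counts in A549 against 112 to 122, was lower by a log2 value of -4.31 ± 0.23 (adjusted p = 1.03e-09). MUC5B (-2.30 ± 0.33, adjusted p = 2.02e-05), MUC2 (-1.79 ± 0.37, adjusted p = 0.000482) and MUC5AC (-0.86 ± 0.15, adjusted p = 0.000115) were lower in A549 too. MUC1 did not differ past the threshold (-0.03 ± 0.22, adjusted p = 0.888). MUC16, MUC19 and MUC20 were under the filter, with counts of 40, 6 and 25, of 6, 2 and 4 and of 13, 11 and 9 in A549 and of 4, 4 and 4, of 1, 1 and 2 and of 2, 3 and 7 in MDA-MB-231. BLM was higher in A549, by 1.21 ± 0.08 (adjusted p = 5.25e-09). Among the 7, MUC13 and MUC4 had the largest differences between the lines.

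Both lines had AGR2 first and MUC5AC second in mean TPM in their control groups. Next came MUC13 in A549, at 6.93 TPM, and MUC5B in MDA-MB-231, at 3.68 TPM, and then MUC1 in both, at 1.53 and 1.73 TPM. The remaining genes had means under 1 TPM in the controls. Some neighbours in these orders overlapped between libraries: MUC5AC and MUC13 in the A549 control, siRNA1 and siRNA3 groups, and MUC5B and MUC1 with siRNA2. In MDA-MB-231 controls MUC5AC, MUC5B and MUC1 did not overlap.

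Other mucins, a list of 12 genes, were measured above the filter in A549 for 5. With siRNA1 4 were higher and 0 lower, and 3 and 0 with siRNA2 and with siRNA3. For this list and those below, the shares of all tested genes were 39% higher and 32.8% lower with siRNA1. They were 32.5% and 28.4% with siRNA2, 30.9% and 30.4% with siRNA3, and 27.5% and 27.8% in MDA-MB-231. No list was tested against these shares. MUC3A, a membrane mucin, was higher by 2.45 ± 0.14, 0.84 ± 0.15 and 1.14 ± 0.15 (log2, edgeR adjusted p = 3.6e-09, 0.000212 and 1.45e-05). OVGP1, an oviduct mucin-like glycoprotein, was higher by 1.67 ± 0.23, 2.35 ± 0.23 and 1.83 ± 0.23. MUC12, another membrane mucin, was higher with siRNA1 (2.85 ± 0.34) and siRNA3 (2.15 ± 0.35). In MDA-MB-231 1 of 4 rose, CD164 (0.33 ± 0.13, adjusted p = 0.0466), a call lost without any of 5 of the 6 libraries.

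Of 20 goblet and club cell secretory proteins, 8 were tested in A549. With siRNA1 3 were higher and 1 lower, with siRNA2 7 and 0, and with siRNA3 1 and 2. LCN2, an iron-scavenging airway protein, was higher by 2.24 ± 0.21, 3.62 ± 0.21 and 1.3 ± 0.22 with the 3 siRNAs (adjusted p = 4.32e-07, 1.01e-08 and 0.000188). SLPI, an antiprotease of airway secretions, was higher with siRNA1 (2.05 ± 0.32) and siRNA2 (2.65 ± 0.32) and lower with siRNA3 (-2.26 ± 0.53). FCGBP, a mucus protein, was higher with siRNA2 (3.01 ± 0.30), and PIGR, the carrier of secreted immunoglobulins, had 1 count in each control library and 18 to 27 with siRNA2. TFF1, a trefoil peptide packed with MUC5AC, was lower with siRNA1 (-0.72 ± 0.25, adjusted p = 0.0207) and with siRNA3 (-2.46 ± 0.32, adjusted p = 1.64e-05). In MDA-MB-231, 2 of 9 rose and 6 fell, among them TFF1 (-0.85 ± 0.08, adjusted p = 1.31e-05), TFF3 (-1.03 ± 0.13, adjusted p = 9.94e-05) and FCGBP (-0.73 ± 0.09, adjusted p = 0.000101), and SLPI rose by 1.48 ± 0.09 (adjusted p = 1.25e-06). In controls, all 9 tested were lower in A549 than in MDA-MB-231 (41.3% of all tested genes were lower), with LCN2 at -5.35 ± 0.11. TFF2 was listed at 0 in every A549 library.

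The transcription factors of secretory cells gave 10 higher and 3 lower of 20 tested with siRNA1, 14 and 1 with siRNA2, and 4 and 9 with siRNA3. SPDEF, the goblet cell factor, had 60 to 91 counts in the A549 control and 942 to 1144 with siRNA2, where it was higher by 3.90 ± 0.18 (adjusted p = 1.76e-09). With siRNA2 ELF3 (1.43 ± 0.08), EHF (2.51 ± 0.16) and FOXA1 (1.34 ± 0.09), epithelial factors, were higher too. EHF was also higher with siRNA1 (2.46 ± 0.16), where HNF4A was higher (1.69 ± 0.10) and FOXM1 (-3.64 ± 0.09) and CREB3L1 (-2.58 ± 0.15) were lower. With siRNA3 FOXA2, a repressor of goblet cell change in the airway, was lower (-0.68 ± 0.08) and GATA6 higher (1.1 ± 0.12). In MDA-MB-231, 5 rose and 7 fell of 19, with KLF4 at 1.18 ± 0.05 (adjusted p = 1.5e-07), FOXM1 at -1.39 ± 0.07 (adjusted p = 3.55e-07) and NKX2-1 at -1.65 ± 0.14 (adjusted p = 8.9e-06). The 7 became 4 without siRNA1 replicate 2 or 3, where 3725 of 15459 and 3690 of 15456 genes fell (4249 of 15280 in the main fit).

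The O-glycosylation enzymes, which build the sugar chains on mucins, gave 7 higher and 7 lower of 21 with siRNA1, 15 and 2 with siRNA2, and 8 and 5 with siRNA3. GALNT5, which adds the first sugar, was higher by 2.82 ± 0.11, 2.91 ± 0.11 and 1.90 ± 0.11 (adjusted p = 5.69e-11, 4.24e-10 and 7.22e-09). In MDA-MB-231 it fell by 1.19 ± 0.06 (adjusted p = 3.81e-07), as did GALNT1 by 1.09 ± 0.05 (adjusted p = 2.32e-07) and 9 more of 19 tested, and 2 rose. C1GALT1C1, the chaperone of the core 1 synthase, was lower with siRNA1 in A549 (-1.31 ± 0.11) and in MDA-MB-231 (-0.84 ± 0.08). B3GNT3 was higher with siRNA2 (1.55 ± 0.11) and lower with siRNA3 (-1.14 ± 0.13).

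AGR2's own group, the 16 disulphide isomerases and folding factors of the endoplasmic reticulum, gave 2 higher and 10 lower with siRNA1, 11 and 1 with siRNA2, and 1 and 9 with siRNA3. The medians were -0.49, 0.50 and -0.26. PDIA4, an isomerase, was at -1.22 ± 0.07, 0.53 ± 0.06 and -1.11 ± 0.07 (adjusted p = 1.82e-09, 1.07e-05 and 1.21e-08). PDIA6 was at -0.90 ± 0.07, 0.64 ± 0.07 and -0.55 ± 0.07. With siRNA1 AGR2 was thus higher while PDIA4, PDIA6, HSPA5 (-0.83 ± 0.08) and HSP90B1 (-1.43 ± 0.08), the 2 last being chaperones, were lower. In MDA-MB-231, 0 rose and 11 of 14 fell, led by PDIA4 (-0.79 ± 0.04, adjusted p = 5.07e-07).

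Granule release genes gave 7 higher and 4 lower of 14 with siRNA1, 8 and 2 with siRNA2, and 7 and 2 with siRNA3. SYTL2, a Rab27 effector on secretory granules, was higher by 2.53 ± 0.08, 2.39 ± 0.08 and 1.98 ± 0.08 in A549 and fell by 0.90 ± 0.09 in MDA-MB-231 (adjusted p = 1.72e-05). STX3 and VAMP8, membrane fusion proteins, were higher with each A549 siRNA, by 1.54 ± 0.07, 1.81 ± 0.08 and 1.53 ± 0.07 for STX3 and 1.95 ± 0.12, 1.89 ± 0.12 and 1.03 ± 0.12 for VAMP8. In MDA-MB-231 4 rose and 6 fell. Of 15 genes that signal from EGFR or IL-13 to mucins, 5 were higher and 5 lower with siRNA1 (39% and 32.8% of all tested genes). With siRNA2 they were 5 and 4 (32.5% and 28.4%), and with siRNA3 6 and 5 (30.9% and 30.4%). In MDA-MB-231, 8 rose and 2 fell (27.5% and 27.8%). TGFA, an EGFR ligand, was higher with all 3 A549 siRNAs (1.06 ± 0.08, 1.11 ± 0.08 and 0.67 ± 0.08) and rose in MDA-MB-231 (0.42 ± 0.05, adjusted p = 4.04e-05). ERBB3, a receptor of that family, was lower with siRNA3 (-3.95 ± 0.19).

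**Figure D4:**
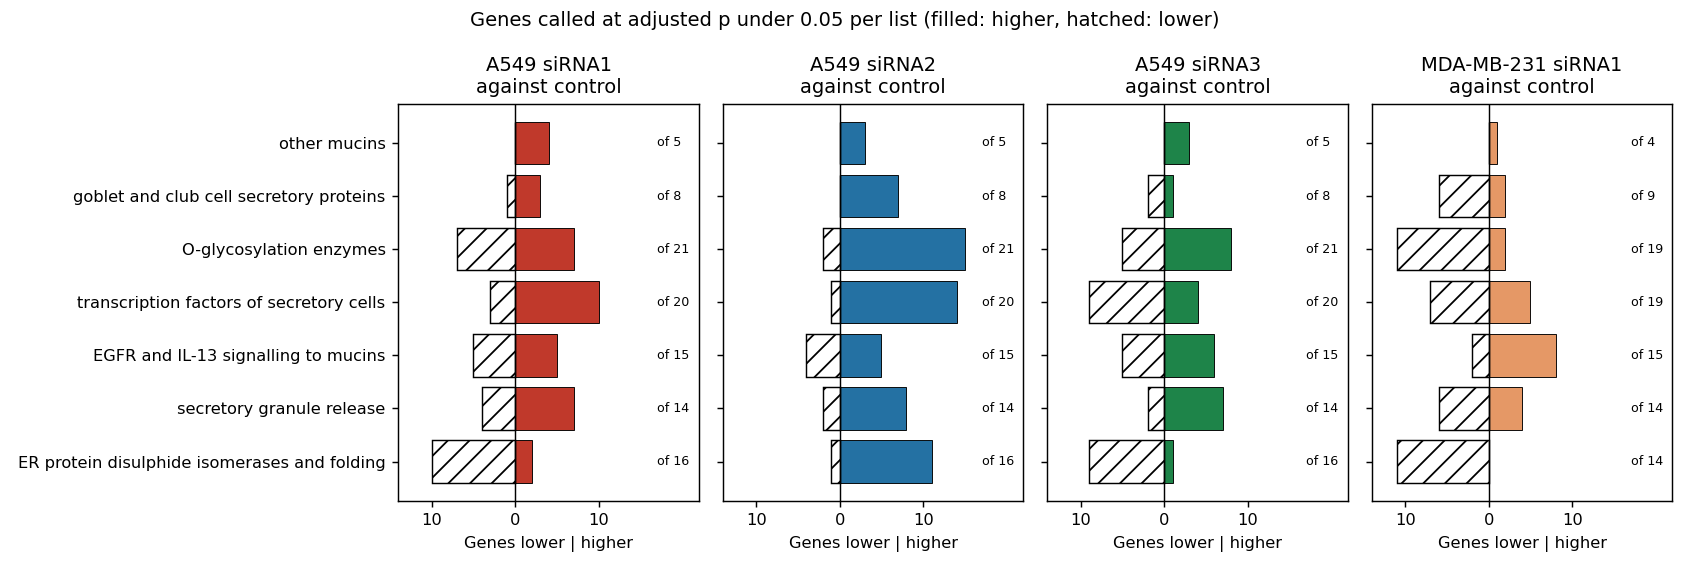
Number of genes per list (y axis) called higher (filled bars, right) or lower (hatched bars, left) at an edgeR adjusted p under 0.05 in each comparison (panels). The folding list, of 16 genes, has 10 lower with siRNA1 and 11 higher with siRNA2 (32.8% and 32.5% of all tested genes).

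Markers of other cell types also differed between the A549 groups, and their part in the mucin values was not tested. Of all tested genes, 39%, 32.5% and 30.9% were higher with siRNA1, siRNA2 and siRNA3, and 32.8%, 28.4% and 30.4% were lower. The summed TPM of 8 ciliated cell markers was 13.1 to 17.4 in the control, 54.7 to 70.5 with siRNA1, 23.7 to 28.7 with siRNA2 and 25.5 to 31.1 with siRNA3, and TEKT1 was at 0 in every A549 library. Of these, 5, 4 and 3 of 6 tested were called higher. Summed over 4 basal cell markers it was 1.21 to 1.43, 6.06 to 8.21, 4.78 to 6.57 and 1.80 to 2.44. With each siRNA, 1 of the 2 basal markers tested was called higher and 1 lower. The 5 epithelial markers summed to 5115 to 5362, 13115 to 14952, 6687 to 6943 and 5138 to 5471, and the 5 mesenchymal markers to 941 to 1036, 1828 to 1907, 1853 to 1915 and 1931 to 1997. Among the mesenchymal markers 3 were called higher and 1 lower with siRNA1 and with siRNA2, and 3 and 0 with siRNA3. Of the 5 epithelial markers, 5 were called higher with siRNA1, 4 with siRNA2 (not KRT18), and with siRNA3 KRT19 was higher (0.88 ± 0.10) and CDH1, the adhesion protein of epithelia, lower (-3.57 ± 0.12). The 5 luminal breast markers, which share KRT19 with the epithelial list, summed to 89.0 to 95.0 TPM in the control, 483 to 532 with siRNA1, 371 to 393 with siRNA2 and 144 to 156 with siRNA3, and 3 of 4 tested were higher with each siRNA. The 6 alveolar type 2 markers summed to 7.84 to 9.86, 25.8 to 27.9, 12.6 to 13.7 and 19.7 to 37.7, and 3, 2 and 3 of 3 tested were higher. The 5 leukocyte markers summed to 4.48 to 6.19, 5.15 to 7.26, 7.86 to 9.75 and 2.35 to 2.69. Of 3 tested, 1 was called higher and 0 lower with siRNA1, 2 and 0 with siRNA2, and 2 and 1 with siRNA3. The secretory markers SCGB1A1, SCGB3A2 and BPIFA1 of club and airway cells were at 0 TPM in all libraries, and, within the alveolar list, the surfactant genes SFTPA1, SFTPB and SFTPC of alveolar cells reached at most 0.21 TPM in any A549 library. In MDA-MB-231, VIM reached 2811 TPM in the control and ESR1 0.28. These are single genes of their lists. In that control, 3 of 5 mesenchymal and 3 of 5 luminal breast markers had a mean of at least 1 TPM. In the A549 control these counts were 5 and 3. The luminal breast markers summed to 626 to 672 TPM in the MDA-MB-231 control.

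Marker sums also differed in MDA-MB-231 beside the lower AGR2, MUC5AC, MUC5B and MUC2, and their part in those values was not tested. Of all tested genes there, 27.5% rose and 27.8% fell. The basal markers summed to 4.17 to 4.34 TPM in the control and 1.41 to 1.58 with siRNA1 (3 of 3 tested fell), and the mesenchymal markers to 3064 to 3106 and then 2190 to 2260 (3 of 5 fell and 1 rose). The alveolar type 2 markers had 16.9 to 17.5 TPM and then 11.2 to 11.95 (2 of 3 fell), and the epithelial markers 1665 to 1976 and then 1458 to 1613 (2 of 5 fell). The ciliated markers had 3.93 to 7.06 TPM and then 6.94 to 8.23 (2 of 4 rose), the luminal breast markers 626 to 672 and then 570 to 664 (1 of 5 fell), and the leukocyte markers 11.4 to 12.6 and then 14.1 to 15.6 (1 of 2 rose and 1 fell).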

How the data were processed

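Per the submitters' processing notes, the authors quantified genes with RSEM on hg19. The aligner, annotation release, RSEM version and strand setting: not given in the sources used here. Libraries were made with a stranded total RNA kit after ribosomal RNA removal, per the labels' protocols. For each gene symbol, the authors deposited expected counts, TPM and FPKM. The deposited expected counts were rounded to whole numbers for testing (10.2% to 11.8% of values in a library were not whole, and none of the 180 values of the 10 genes). The deposited TPM values were used for levels, and the deposited FPKM values were not used.

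edgeR 4.0.16 (R 4.3.3) was run with TMM scaling, a filter (filterByExpr, minimum count 10, minimum total 15) and quasi-likelihood tests, with Benjamini-Hochberg adjustment over all tested genes and a threshold of 0.05. Separate fits held the 12 A549 libraries, the 6 of MDA-MB-231 and the 6 controls. The standard error is the log2 fold change divided by the square root of F. Alternatives used DESeq2 1.42.0, limma 3.58.1 on log2(TPM + 1) and log2(TPM + 0.1), other scalings and filters, and each library left out. The fits were tested on simulated data.

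The members and the gene lists were chosen with earlier results of these data known. Every member was named in every comparison, along with BLM, genes taken from the 4 with the smallest adjusted p in each list, and the 5 genes most correlated with MUC19 and with AGR2. Markers at or near 0 and a few background names lie outside this rule. AGR3, PIGR and TFF2 are given as counts where a group is near 0. Mucins hold repeats and near copies, such as those of MUC20, whose reads RSEM may split, so their values are uncertain in that respect. Longer NF-kB and HNF1 motifs, which matched none of the printed windows, were searched at first and then left out. Exact count intervals cover counting error only.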

Additional observations from a re-analysis of the deposited data

Results flagged for a closer look

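The genes MUC5B and AGR2 moved in opposite directions with the siRNA named siRNA1 in A549 and in MDA-MB-231, with every library of each siRNA group on its own side of the control. How many of all genes do the same is not given here. The log2 fold change of MUC5B was 2.51 in A549 and -1.28 in MDA-MB-231. That of AGR2 was 1.00 in A549 and -0.96 in MDA-MB-231. The difference between the lines was not tested, because each line was fitted on its own. No gene's 3 values within a group were tested for an outlying sample.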

How the results depend on the processing

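The number of members called ran from 7 to 9 for siRNA1 (7 in the main fit), 7 to 8 for siRNA2 (8), 5 to 7 for siRNA3 (7), 5 to 5 in MDA-MB-231 (5) and 6 to 8 between the control groups (6) over the settings other than left-out libraries. With 1 library left out, it ran from 7 to 9, 7 to 8, 6 to 8, 5 to 5 and 6 to 8. In the main fits, 39% of all tested genes were higher and 32.8% lower with siRNA1. The shares were 32.5% and 28.4% with siRNA2, and 30.9% and 30.4% with siRNA3. They were 27.5% and 27.8% in MDA-MB-231, and 40.7% and 41.3% between the control groups. Calls over all genes moved too: with siRNA1, 6196 of 15898 were higher in the main fit and 5476 of 14098 under a filter of 1 CPM in 3 libraries. Single calls changed for 12 of 209 member values with siRNA1, 10 of 208 with siRNA2, 8 of 208 with siRNA3, 0 of 84 in MDA-MB-231 and 0 of 98 between the lines. Values near 0 changed sign. MUC20 with siRNA2 ran from -0.281 to 0.0556 with 1 library left out, and was 0.025 without siRNA2 replicate 2, 0.0066 without siRNA2 replicate 3 and 0.0556 without control replicate 1. MUC2 with siRNA3 ran from -0.187, without control replicate 2, to 0.777. MUC4 in MDA-MB-231 became 0.00019 with upper quartile factors and ran from -0.331 to 0.155, the latter without siRNA1 replicate 2. MUC1 between the lines became 0.0348 with upper quartile factors and ran from -0.187 to 0.14 with 1 library left out, with 0.14 without A549 control replicate 2 and 0.0405 without MDA-MB-231 control replicate 3. The cause was not tested.

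On log2(TPM + 1), 7689 genes were higher and 3558 lower with siRNA1 (6196 and 5208 from counts), 4971 and 3317 in MDA-MB-231 (4208 and 4249), and 4953 and 7870 between the lines (6435 and 6536). The median of all genes moved from 0.09 to 0.23 with siRNA1 and from -0.01 to -0.20 between the lines. On TPM the O-glycosylation list gave 11 higher and the EGFR and IL-13 list 8 higher with siRNA1. The goblet and club cell list gave 4 higher of 5 with siRNA2 under a filter of 1 CPM, where 4453 of 14098 genes were higher. In MDA-MB-231 the granule list gave 7 higher with upper quartile factors, where 4948 of 15280 genes were higher (4208 in the main fit). The folding list gave 2 higher there without control replicate 3, where 4545 of 15487 genes were higher.

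The replicate numbers are not stated to pair libraries. Correlations of same-numbered deviations ran from -0.39 to 0.303, and no comparison had all 3 above 0.1. With a replicate block, 7, 8, 7, 5 and 6 members were called, as without it. Genes with under 20 counts in every library of a group are limited by depth. In A549 these were MUC4, MUC19 and MUC20 in the control and MUC4 with siRNA1. They were MUC4 and MUC20 with siRNA2, and MUC16 and MUC19 with siRNA3. In both MDA-MB-231 groups they were MUC13, MUC16, MUC19 and MUC20.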
